A study of Mus musculus with 12 samples.

Results

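The genes described here are 38 interferon-stimulated genes, a set chosen by symbol from the textbook antiviral and GTPase programmes that interferons switch on, set beside the 21900 protein-coding genes of the mouse annotation. All 38 symbols were found in the GRCm38.p6 annotation, 36 of them as protein-coding genes, while Mx1 and Mx2 are annotated as transcribed pseudogenes. The acetyl mark that active promoters and enhancers carry on histone H3 (H3K9/14ac) was measured at them by RELACS ChIP-seq, a protocol that barcodes the chromatin of each sample inside its nuclei before samples are pooled for 1 immunoprecipitation. The cells were in vitro differentiated Th17 cells, the IL-17-producing class of CD4+ helper T cells. The KO genotype was Slc2a3-fl/fl Cd4-cre (n = 3 ChIP libraries), in which a Cre recombinase driven by the Cd4 promoter deletes the floxed gene of the glucose transporter GLUT3 in developing T cells, and it was set against wild type, WT (n = 3). Both genotypes were C57BL/6. Naive T cells of both had been kept under Th17 polarizing conditions for 3 days and then restimulated for 3 h with PMA and ionomycin, which mimic T cell receptor signalling, together with brefeldin A and monensin, which block secretion. The labels do not say whether the WT animals carried Cd4-cre, nor whether replicates came from separate animals, so p-values measure the spread between these libraries, which may be technical.

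Interferons bind receptors that activate JAK kinases, and these phosphorylate STAT proteins. Type I and III interferons act mainly through a promoter element called the ISRE, and interferon gamma acts mainly through GAS elements and through the transcription factor IRF1, which it induces. The induced genes code for sensors of viral nucleic acid, for enzymes that degrade or edit RNA, for proteins that block viral translation or release, and for GTPases that attack the vacuoles of intracellular pathogens. In T cells these genes are read as a record of recent interferon exposure.

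Gene ends were taken as 2 kb to each side of the first and last base of a gene, and a region as a run of 150 bp windows from the authors' deposited table of differential acetylation. Of the 38 genes, 29 had at least 1 region at a gene end, and these genes held 64 regions within 5 kb of their spans, 46 of them at gene ends. Oas1a, Oas2, Rsad2, Ifi44 and Rtp4 had no peak in any library. Ifit1, Ifit3, Mx1 and Xaf1 had a peak in some libraries but no region in the table. Peaks within 5 kb of Xaf1 covered 0, 338 and 338 bp in KO libraries and 0 bp in each WT library. At Mx1 they covered 367 bp in the third KO library and 0 bp in every other library.

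The libraries differed in depth. Mean fragment coverage, recovered from the peak statistics, was 1.85, 2.29 and 1.92 in KO libraries and 3.99, 3.48 and 2.97 in WT libraries, and peak lists held 39264 to 40582 peaks in KO and 40997 to 43507 in WT. The third KO library stood apart, with 11 peaks on chromosome Y and 0 bp of peaks over Xist, where the other 5 libraries had 1 to 2 and 2528 to 2691 bp. Results below are given by library. Of 7 Th17 and CD4 T cell markers, 6 or 7 had a gene-end peak in each library, covering 18756 to 23690 bp in KO and 32324 to 34075 bp in WT. Of the listed markers of other cells, some had no gene-end peak in any library. They include Cd8a, Klrb1c and Ncr1 for CD8 T and NK cells, and Ms4a1 and Pax5 for B cells. For myeloid and dendritic cells they are Lyz2, Itgam, Siglech and Clec9a. Other listed markers of these cells did have a gene-end peak, as given next. Summed gene-end peaks were 476 to 1323 bp in KO and 2107 to 2786 bp in WT over 5 CD8 T and NK markers (1 or 2 with a peak), 1282 to 1502 bp and 1200 to 1364 bp over 6 myeloid markers (1 or 2 with a peak), and 0 to 274 bp and 0 to 577 bp over 3 erythroid markers (0 or 1 with a peak). The B cell marker Cd79a had a gene-end peak in every library, of 2819 to 3295 bp in KO and 3541 to 4503 bp in WT. The part of these markers in the results below was not tested. At Slc2a3 itself the tallest gene-end peak stood at 44.3, 42.8 and 46.9 times mean coverage in KO and at 83.7, 86.5 and 93.3 times in WT, which does not itself show the deletion.

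As a class the interferon-stimulated genes split. In the authors' deposited table, taking for each gene its gene-end region of lowest FDR, 9 of 29 genes were lower in KO at an FDR under 0.05, against 64.3% of the 11625 protein-coding genes with a gene-end region. By the same reading of the authors' deposited table, a further 9 of the 29 were higher in KO, against 6.4% of those genes, and 11 were not called. The median log2 fold change over the 29 in the authors' deposited table was -0.37, beside -0.81 over all genes. Counted by region in the authors' deposited table, 18 of 64 were lower and 16 higher, beside 46.3% and 12.7% of the 40907 regions placed, with medians of -0.23 and -0.62. The genes were chosen with results of these data known, so these shares describe the set and are not independent evidence about it. Counting any region within 5 kb of the span, the authors' deposited table had 13 of 29 genes lower and 8 higher, beside 67.5% and 11.8% of all genes. At an FDR under 0.01 the authors' deposited table had 5 genes lower and 8 higher, beside 51.1% and 5.06% of all genes. With an FDR under 0.05 and a log2 fold change of at least 1 in size at both its own and the mean-coverage scaling, the authors' deposited table had 0 lower and 5 higher, beside 14.7% and 3.36%. Of the 64 regions, the authors' deposited table had 2 lower and 14 higher at an FDR under 0.05 and by at least 1 on the log2 scale at mean-coverage scaling, beside 15.0% and 11.6% of all regions. Of the 20 genes with a region within 1 kb of an annotated start, the authors' deposited table had 7 lower and 6 higher there, beside 62.4% and 4.77% of the genes read in that way. The guanylate binding proteins and immunity-related GTPases supplied 7 of the 9 genes that were higher and none that was lower, though Gbp9 and Irgm1 of these families were not called.

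**Figure D1:**
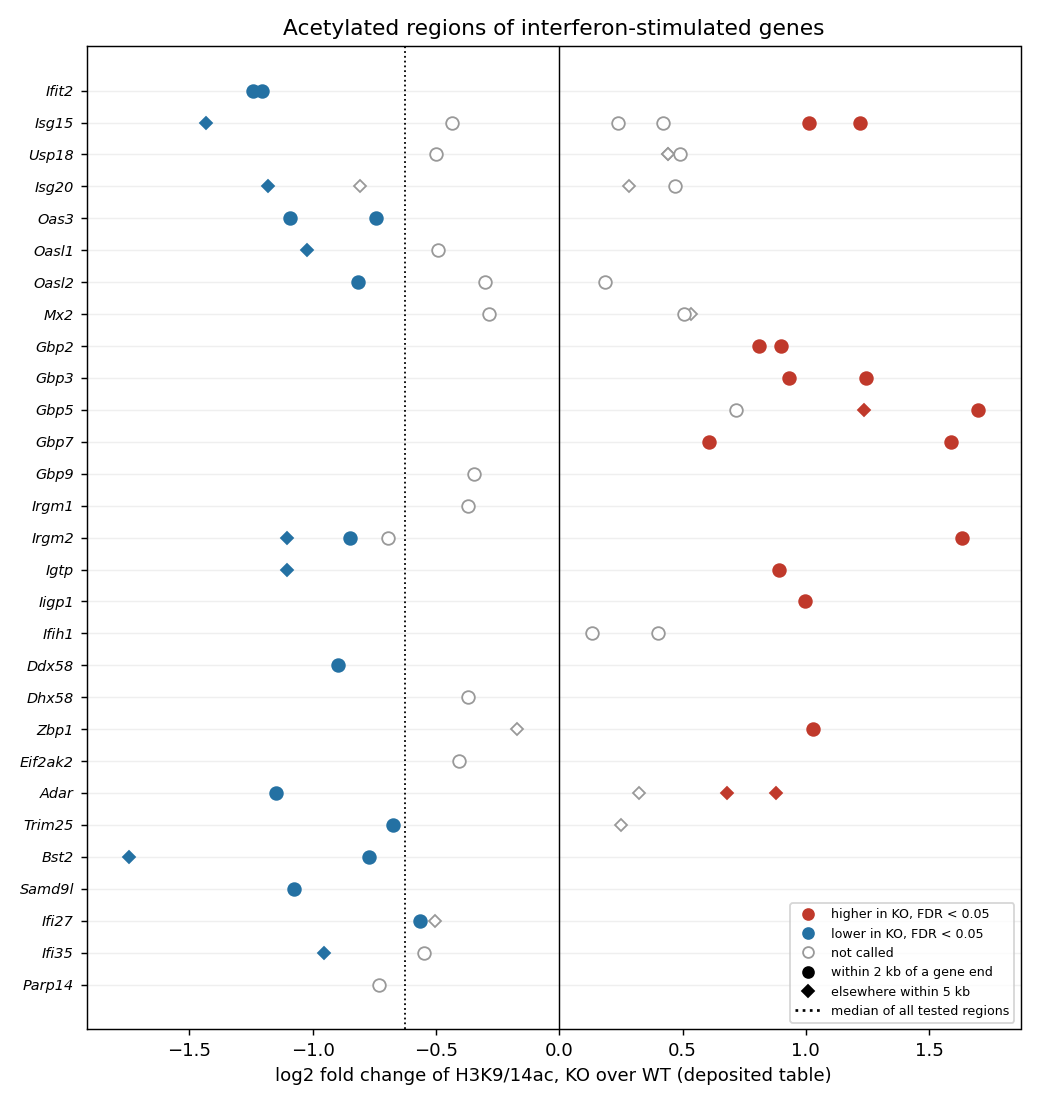
Log2 fold change of H3K9/14ac, KO over WT, as given in the authors' deposited table, for every region within 5 kb of each gene, with genes in rows ordered by family. Filled points passed an FDR of 0.05, circles lie within 2 kb of a gene end, diamonds elsewhere, and the dotted line is the median of all tested regions at -0.62; the regions of Gbp2, Gbp3, Gbp5 and Gbp7 lie to the right of 0 and those of Ifit2 and Oas3 to the left.

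Promoter sequences carry the elements that interferon signalling reads, and 27 of the 38 genes have an annotated start in the RefSeq promoter table for GRCm38.p6. Windows ran from 250 bases before to 50 bases after a start. Both strands were searched for an ISRE core spelled GAAANNGAAA (TTTCNNTTTC on the other strand) and for a GAS spelled TTCNNNGAA, which reads the same on both strands. The 27 genes had 33 windows. The ISRE core lay in 17 of the 33, belonging to 17 of the 27 genes, and in 3.44% of all 32851 windows. The GAS lay in 11 of the 33, belonging to 11 of the 27 genes, and in 8.3% of all windows. A match is a match of letters and shows no binding, and no match says only that these letters are not in this window. An ISRE core match overlapped a GAS match in Bst2, and ISRE core matches overlapped each other in Bst2, Gbp3, Irgm1, Isg15 and Oas1a.

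The windows below belong to the 4 guanylate binding protein genes whose acetylation rose, to Ifit2 and Oas3, whose acetylation fell, and to Isg15, whose start region was not called. They are RefSeq sequences of build GRCm38.p6, written 5′ to 3′ on the strand of the gene, with ISRE core and GAS matches in capitals. Gbp3 and Ifit2 have a second annotated start, which held neither motif.
Gbp2, chr3:142620413-142620712, plus strand: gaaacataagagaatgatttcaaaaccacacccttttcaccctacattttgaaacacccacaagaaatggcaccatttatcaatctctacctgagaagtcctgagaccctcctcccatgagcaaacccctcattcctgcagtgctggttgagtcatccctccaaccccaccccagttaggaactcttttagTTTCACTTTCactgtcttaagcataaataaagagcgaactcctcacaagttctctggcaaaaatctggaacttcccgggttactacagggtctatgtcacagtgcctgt
Gbp3, chr3:142559794-142560093, plus strand: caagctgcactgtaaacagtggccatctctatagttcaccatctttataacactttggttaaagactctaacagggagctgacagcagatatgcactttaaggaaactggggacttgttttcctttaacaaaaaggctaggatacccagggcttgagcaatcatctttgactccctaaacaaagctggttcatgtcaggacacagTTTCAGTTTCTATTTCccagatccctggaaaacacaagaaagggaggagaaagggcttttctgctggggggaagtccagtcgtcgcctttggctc
Gbp5, chr3:142496684-142496983, plus strand: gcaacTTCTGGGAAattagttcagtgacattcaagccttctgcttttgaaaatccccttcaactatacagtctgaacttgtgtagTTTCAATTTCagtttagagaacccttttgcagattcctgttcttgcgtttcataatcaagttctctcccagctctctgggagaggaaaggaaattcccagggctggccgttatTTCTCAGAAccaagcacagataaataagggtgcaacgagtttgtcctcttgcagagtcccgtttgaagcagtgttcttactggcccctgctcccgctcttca
Gbp7, chr3:142530086-142530385, plus strand: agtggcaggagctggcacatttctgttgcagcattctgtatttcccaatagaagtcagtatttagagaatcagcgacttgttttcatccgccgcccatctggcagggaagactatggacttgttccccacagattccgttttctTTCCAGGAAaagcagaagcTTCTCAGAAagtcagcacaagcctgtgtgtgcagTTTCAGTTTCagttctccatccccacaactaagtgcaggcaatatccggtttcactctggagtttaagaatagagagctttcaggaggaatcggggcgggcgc
Ifit2, chr19:34550444-34550743, plus strand: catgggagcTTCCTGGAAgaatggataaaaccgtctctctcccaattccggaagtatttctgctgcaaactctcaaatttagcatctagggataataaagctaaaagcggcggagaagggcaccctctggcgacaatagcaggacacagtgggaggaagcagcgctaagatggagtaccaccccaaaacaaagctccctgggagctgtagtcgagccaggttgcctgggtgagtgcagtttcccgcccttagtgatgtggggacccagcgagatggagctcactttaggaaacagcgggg
Oas3, chr5:120777610-120777909, minus strand: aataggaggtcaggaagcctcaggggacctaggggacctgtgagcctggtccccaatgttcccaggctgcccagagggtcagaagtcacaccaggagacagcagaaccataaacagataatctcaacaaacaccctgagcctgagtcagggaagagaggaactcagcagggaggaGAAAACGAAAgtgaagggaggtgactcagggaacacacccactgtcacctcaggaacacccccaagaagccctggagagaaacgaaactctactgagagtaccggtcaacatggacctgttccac
Isg15, chr4:156200769-156201068, minus strand: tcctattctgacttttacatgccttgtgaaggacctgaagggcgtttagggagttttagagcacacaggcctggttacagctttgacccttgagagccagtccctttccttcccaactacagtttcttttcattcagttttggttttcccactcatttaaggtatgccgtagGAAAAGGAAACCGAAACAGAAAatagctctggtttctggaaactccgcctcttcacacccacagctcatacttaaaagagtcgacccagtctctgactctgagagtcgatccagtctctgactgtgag
The ISRE core began 59 bases before the start in Gbp2, 45 and 39 before it in Gbp3, 165 before it in Gbp5 and 53 before it in Gbp7. Gbp5 also held GAS matches beginning 245 and 52 bases before its start, and Gbp7 held them 106 and 87 bases before its own. Oas3 had an ISRE core 75 bases before its start, and Isg15 had an overlapping run of them at 78, 72 and 66 bases. Ifit2 held a single GAS match, 241 bases before its start. Both genes that rose and genes that fell or were not called thus carried an ISRE core: Oas3 fell, Isg15 was not called at its start region, and Irgm1, with matches 30 and 24 bases before its start, was not called.

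The guanylate binding proteins are interferon gamma-induced GTPases that coat pathogen vacuoles and help release their contents for inflammasome sensing. Gbp5, Gbp7, Gbp3 and Gbp2 lie together on chromosome 3 over 141075 bp, with Gbp2b between Gbp3 and Gbp2. In the authors' deposited table each of the 7 regions inside this cluster was higher in KO, by 0.61 to 1.70 on the log2 scale. Peak-covered length within 5 kb of the 4 genes was 17345, 14415 and 18622 bp in KO and 9300, 9386 and 10872 bp in WT, a ratio of 1.70. Each KO library thus had more than each WT library, while the total length of peaks over the genome was 0.827 times that of WT. The exact two-sided permutation test gave p = 0.1 for the cluster, the smallest that 3 against 3 libraries allow. Without the third KO library the difference, KO minus WT, was 6027 bp, against 6941 bp with it.

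**Figure D2:**
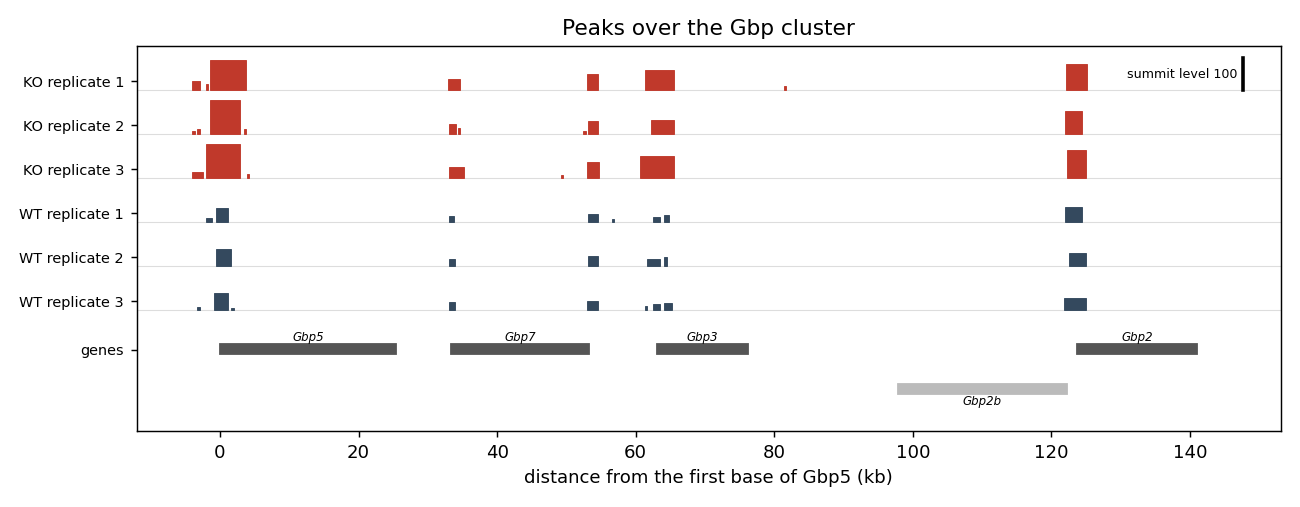
Peaks of the 6 libraries over the Gbp cluster, KO rows above WT rows, against distance in kb from the first base of Gbp5, with box height showing the summit level in multiples of mean coverage. The boxes at Gbp5, Gbp3 and Gbp2 are taller in every KO row than in every WT row, and the Gbp5 and Gbp3 boxes are also wider there.

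Gbp5, which also promotes NLRP3 inflammasome assembly, had the highest log2 fold change in the authors' deposited table within the cluster. Its start region, chr3:142495501-142500000, stood at 1.70 on the log2 scale with an FDR of 3.27e-10 in the authors' deposited table. The summit level, the height of the tallest gene-end peak in fragments divided by the mean coverage of its library, was 93.0, 106 and 107 in KO and 45.4, 52.6 and 52.2 in WT. That is a log2 difference of 1.03 ± 0.10 (SE), with no overlap between genotypes. Peaks covered 6630, 5329 and 6763 bp within 5 kb of Gbp5 in KO and 2660, 2210 and 2870 bp in WT. The peak was wider too, with 4321 to 4459 bp of the start region in peaks in KO and 2097 to 2522 bp in WT. A region upstream of the gene, chr3:142493551-142494150, was higher as well in the authors' deposited table, by 1.24 on the log2 scale, and had a peak in all 3 KO libraries and in 1 WT library. The next region out, between it and the start, had a log2 fold change of 0.72 and an FDR of 0.0567 in the authors' deposited table and was not called.

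Gbp3, a guanylate binding protein with a conserved GTPase fold, had summit levels of 62.2, 43.7 and 67.7 in KO and 21.3, 29.9 and 23.2 in WT. The log2 difference of 1.21 ± 0.24 (SE) was larger than the spread between replicates. Its start region, chr3:142559401-142561650, had a log2 fold change of 0.93 and an FDR of 0.000106 in the authors' deposited table. A second region inside the gene, chr3:142561801-142562550, lay in peaks in all 3 KO libraries and 1 WT library, with a log2 fold change of 1.24 in the authors' deposited table. Peaks covered 4193, 3256 and 4776 bp in KO and 1666, 2377 and 2488 bp in WT around Gbp3, again without overlap. With peaks called on single reads the difference at Gbp3, KO minus WT, was 985 bp (exact permutation p = 0.2), against 1898 bp.

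Gbp7 had its tallest peak at the downstream end of the gene and a lower one at the start. At the start region, chr3:142529851-142531200, the peak stood at 35.7, 31.9 and 34.9 times mean coverage in KO and at 19.3, 23.0 and 24.6 times in WT. The log2 fold change there was 1.59 with an FDR of 2.43e-07 in the authors' deposited table, against 0.61 and 0.0383 at the downstream region. The downstream peak stood at 50.8, 39.3 and 51.0 times mean coverage in KO and at 25.8, 30.5 and 28.3 times in WT. Neither set overlapped between genotypes. Covered length around Gbp7 was 3427, 3325 and 4262 bp in KO and 2532, 2374 and 2399 bp in WT.

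Gbp2, a well-studied member that targets the vacuoles of Toxoplasma and cytosolic bacteria, differed in peak height, while peak length overlapped. Its summit level was 81.6, 71.2 and 87.0 in KO and 45.9, 41.7 and 37.0 in WT, a log2 difference of 0.95 ± 0.12 (SE) without overlap. Covered length overlapped, at 3095, 2505 and 2821 bp in KO and 2442, 2425 and 3115 bp in WT, a mean difference of 146 bp, which was 730 bp with single-read peaks (exact permutation p = 0.1). The authors' deposited table had both of its regions higher, by 0.81 at the start and 0.90 just upstream of it on the log2 scale, and both also lie within 2 kb of an end of Gbp2b. Reads shared by such close relatives may have been split between copies or placed at the wrong one; the sources used here do not say how reads with several placements were treated, and the same holds for the Ifit, Oas and Irgm families.

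Beyond the cluster on its Gbp2 side the nearest region, at Kyat3, had a log2 fold change of -0.29 and was not called in the authors' deposited table. Gbp9, a relative on chromosome 5, had 1 gene-end region with a log2 fold change of -0.35 and an FDR of 0.487 in the authors' deposited table. Its summit levels overlapped, at 38.9, 31.4 and 49.5 in KO and 27.3, 37.4 and 36.7 in WT, and its covered length was smaller in each KO library, at 2282, 1116 and 1256 bp against 2402, 2775 and 2519 bp in WT.

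The immunity-related GTPases, interferon gamma-induced proteins that either regulate or attack pathogen vacuoles, were called higher in 3 of 4 cases, beside 6.4% of all genes, but in 1 of the 3, Irgm2, the gene-end regions went both ways. Igtp, a regulatory member also called Irgm3, had a start region with a log2 fold change of 0.89 and an FDR of 0.0186 in the authors' deposited table. Its summit levels overlapped, at 57.3, 59.8 and 72.9 in KO and 59.4, 59.2 and 49.8 in WT, and so did its covered length, at 5472, 4319 and 4435 bp in KO and 5700, 4470 and 4588 bp in WT. The mean difference, KO minus WT, was -177 bp, and 313 bp with single-read peaks (exact permutation p = 0.2). At Igtp the table's call thus stood beside peaks whose height and length overlapped between genotypes.

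Irgm2, a regulatory GTPase that sits beside Igtp on chromosome 11, held regions that moved in opposite directions. A region inside the gene, chr11:58216801-58217850, 1824 bp from the start, had a log2 fold change of 1.63 and an FDR of 1.19e-10 in the authors' deposited table. Peaks covered 945, 888 and 1008 bp of it in KO and 757, 0 and 0 bp in WT. The start region itself was not called, at -0.69 and an FDR of 0.0715 in the authors' deposited table, and a region at the far end was lower, at -0.85. A region between Igtp and Irgm2 was lower too, at -1.10 in the authors' deposited table. The summit level at Irgm2 was 50.8, 50.2 and 51.0 in KO and 47.9, 49.1 and 39.4 in WT, not overlapping but only 0.16 ± 0.10 (SE) apart on the log2 scale, and covered length overlapped, at 4590, 4416 and 4869 bp in KO and 5584, 4783 and 4914 bp in WT. Its mean difference of -469 bp turned to 281 bp with single-read peaks (exact permutation p = 0.1). The authors' deposited table has 14 regions within 100 kb to either side of the pair, of which 7 were lower and 1 was higher. Of all tested regions, 46.3% were lower and 12.7% higher. The 7 include the region at the far end of Irgm2 given above.

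Irgm1, which guards self membranes and is needed for survival of activated T cells in mice, had the highest mean level in WT of the genes read in all 6 libraries. Its summit levels were 83.8, 76.9 and 103 in KO and 83.7, 75.6 and 72.1 in WT, overlapping, and its region was not called, at -0.37 in the authors' deposited table. Covered length around Irgm1 was smaller in each KO library, at 5006, 5054 and 5154 bp, against 5696, 5646 and 5954 bp in WT. Iigp1, an effector of this family, was called higher, with a log2 fold change of 1.00 in the authors' deposited table, on a thin basis. The called region held a peak in 1 KO and in 1 WT library, and peaks within 5 kb of Iigp1 covered 877, 384 and 695 bp in KO and 0, 435 and 0 bp in WT, a mean difference of 507 bp that was 76.7 bp with single-read peaks.

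The Ifit proteins are antiviral effectors, of which Ifit1 binds viral RNA that lacks self methylation marks and blocks its translation. At the Ifit cluster acetylation was lower in KO. The cluster spans 99460 bp on chromosome 19 and holds 6 genes, yet its 2 regions in the authors' deposited table both lie at Ifit2. Per the authors' deposited table the log2 fold change was -1.24 at the start, with an FDR of 3.17e-08, and -1.20 further in. Of all genes with a gene-end region, 64.3% were lower. Outside the cluster, a region at Lipa was lower as well, at -0.77 and an FDR of 0.00757 in the authors' deposited table. Another region at Lipa, at 0.27, was not called. The start region, chr19:34550551-34551450, overlaps both annotated Ifit2 starts, while the GAS match in the printed window lies just outside it. Summit levels at Ifit2 were 27.0, 22.7 and 27.1 in KO and 47.4, 48.9 and 47.8 in WT. The log2 difference of -0.91 ± 0.09 (SE) came without overlap. Peak-covered length at Ifit2 was 440, 344 and 928 bp in KO and 2324, 1214 and 1551 bp in WT.

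**Figure D3:**
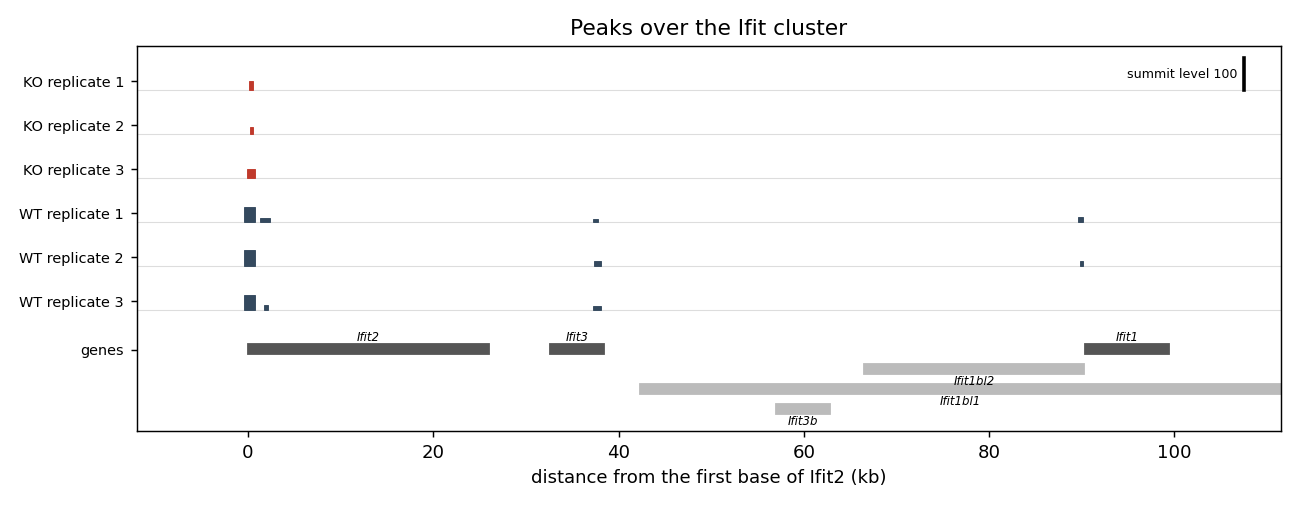
Peaks of the 6 libraries over the Ifit cluster, KO rows above WT rows, against distance in kb from the first base of Ifit2, drawn to the same height scale as the Gbp map. The Ifit2 box is lower in every KO row, and boxes at Ifit3 and Ifit1 appear in WT rows but in no KO row.

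Ifit3 had a peak in every WT library, of 502, 680 and 776 bp, and 0 bp in each KO library. These WT peaks were low, at 9.77, 14.9 and 12.8 times mean coverage, and coverage was lower in the KO libraries, as given above; the part of depth in these absent peaks was not tested. Ifit1 had 0 bp in each KO library and 589, 308 and 0 bp in WT. With single-read peaks the difference was 0 bp at both genes, and with peaks of a -log10 q of at least 5 that at Ifit3 was -485 bp (exact permutation p = 0.4), against -653 bp. Over the cluster the covered length was 440, 344 and 928 bp in KO and 3415, 2202 and 2327 bp in WT, a ratio of 0.216 with no overlap and an exact two-sided permutation p = 0.1. The difference, KO minus WT, was -335 bp with peaks called on single reads (exact permutation p = 0.3), against -2077 bp with paired fragments. Without the third KO library it was -2256 bp.

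**Figure D4:**
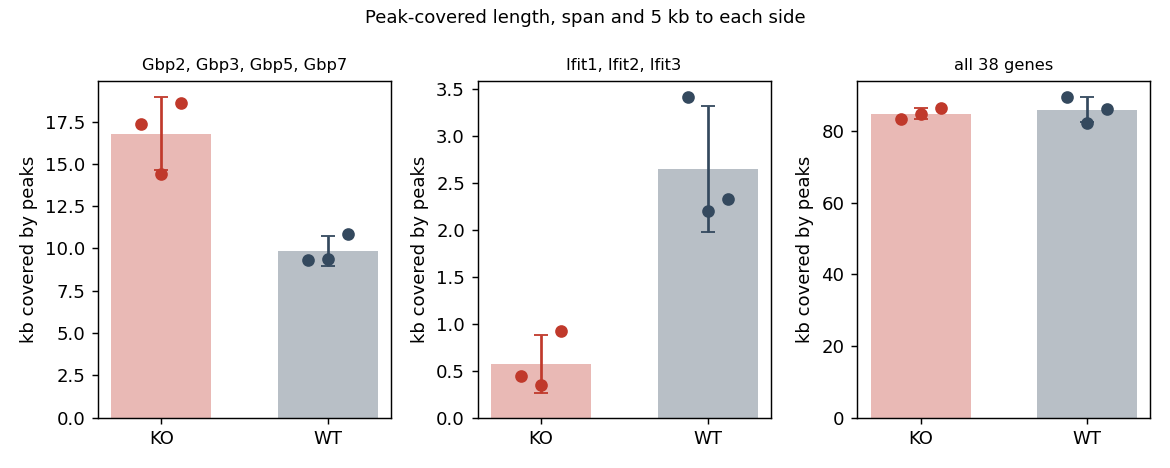
Length covered by peaks within 5 kb of the gene spans, in kb, for the Gbp cluster, the Ifit cluster and all 38 genes, with bars for means, whiskers for SD (n = 3 libraries each) and points for libraries, KO left of WT. KO points lie above WT points for the Gbp cluster, below them for the Ifit cluster, and among them for all 38 genes.

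Over all 38 genes the totals overlapped between genotypes. Covered length was 83441, 84790 and 86310 bp in KO and 89382, 82344 and 86121 bp in WT, a ratio of 0.987 with an exact two-sided permutation p = 0.7. At gene ends alone the ratio was 0.987 as well (exact permutation p = 0.7). Of 33 genes with a peak in some library, 8 had less covered length in every KO library than in any WT library, and 5 had more, beside 41.3% and 6.18% of the 14016 genes with peaks. Benjamini-Hochberg adjusted exact permutation p-values over these genes were 0.254 or higher, so none passed 0.05.

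The 2-5A synthetases make the second messenger that activates RNase L, and Oas3 makes the long chains that do so best in human cells. In the authors' deposited table both Oas3 regions were lower, at -0.74 over the start and -1.09 inside the gene. Peaks within 5 kb of Oas3 covered 502, 1210 and 1166 bp in KO and 3416, 2406 and 3839 bp in WT, a mean difference of -2261 bp, or -1198 bp with single-read peaks. Summit levels were 16.8, 29.7 and 27.6 in KO and 32.8, 34.2 and 37.0 in WT, without overlap, and the log2 difference of -0.53 carried an SE of 0.26, with the first KO library well below the other KO libraries. The flanks were lower as well, since both regions tested within 100 kb outside the Oas cluster, at Rasal1 and Dtx1, stood at -1.10 and -1.08 on the log2 scale, per the authors' deposited table.

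Oasl2, a 2-5A synthetase-like protein with ubiquitin-like repeats, was called on 1 of its 3 gene-end regions, at -0.82 and an FDR of 0.0365 in the authors' deposited table. The called region lies beyond the downstream end of the gene, 16867 bp from the annotated start. All 3 regions lie at that downstream end and none at the start of Oasl2. Its covered length overlapped, at 3632, 4711 and 4773 bp in KO and 4400, 4577 and 4309 bp in WT. Oasl1, which restrains IRF7 translation in mice, was not called at its gene end, at -0.49 in the authors' deposited table, while a region beyond its span shared with a neighbouring gene was lower at -1.02. Of the Mx GTPases, which trap viral nucleocapsids, Mx2 was not called, at 0.51 in the authors' deposited table, although its summit level was higher in each KO library, at 26.5, 17.0 and 17.2 against 15.3, 13.8 and 11.8 in WT. C57BL/6 mice are known to carry defective Mx alleles.

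Isg15, a ubiquitin-like modifier among the most strongly induced interferon targets, had its higher regions at its downstream end and inside the gene, not at its start. Regions at chr4:156199051-156199650, across its downstream end, and chr4:156199801-156200100, inside it, were higher by 1.22 and 1.01 on the log2 scale, per the authors' deposited table. They were covered over their full 600 and 300 bp by peaks in every KO library and by 0 bp in every WT library. The region at the start, chr4:156200851-156201300, had a log2 fold change of 0.24 and was not called in the authors' deposited table. Beyond the gene, at an end of Agrn, a region was lower, at -1.43 in the authors' deposited table. The summit level at Isg15 overlapped, at 22.7, 22.3 and 37.0 in KO and 16.3, 23.9 and 20.5 in WT, as did covered length, at 2428, 2115 and 3738 bp in KO and 1612, 2146 and 1433 bp in WT, a mean difference of 1030.0 bp, or 541 bp with single-read peaks. The region at chr4:156199051-156199650 also lies within 2 kb of an end of Agrn.

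Usp18, the protease that removes ISG15 and dampens type I interferon receptor signalling, had 4 regions, none called. Peaks around Usp18 covered 4307, 3851 and 2484 bp in KO and 1558, 1934 and 2189 bp in WT, with no overlap. Isg20, an RNA exonuclease, had summit levels of 76.2, 88.2 and 88.5 in KO and 48.9, 56.6 and 56.6 in WT, again with no overlap. Its gene-end region, which also lies at an end of Aen, was not called, at 0.47 in the authors' deposited table, and a region inside the gene was lower at -1.18.

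Among the nucleic acid sensors, Zbp1 rose and Ddx58 fell at their called regions, while Adar held called regions of both directions. Zbp1 senses left-handed nucleic acid and triggers necroptosis, and its gene-end region, chr2:173217001-173219850, had a log2 fold change of 1.03 and an FDR of 5.88e-05 in the authors' deposited table. Summit levels at Zbp1 were 70.8, 62.0 and 53.1 in KO and 39.8, 35.3 and 37.4 in WT, a log2 difference of 0.72 ± 0.13 (SE) without overlap. Covered length was 3387, 3342 and 2719 bp in KO and 2341, 1381 and 1667 bp in WT. Zbp1 was thus the gene outside the Gbp cluster that was higher by the table, by peak height and by peak length.

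Ddx58, the gene of the RNA sensor RIG-I, had a log2 fold change of -0.90 in the authors' deposited table, while its summit levels overlapped, at 44.3, 45.9 and 56.3 in KO and 50.6, 56.3 and 50.2 in WT. Covered length around Ddx58 overlapped too, at 2237, 2829 and 2596 bp in KO and 4072, 2656 and 3223 bp in WT. Adar, whose enzyme edits adenosine in double-stranded RNA and keeps self RNA from being sensed, moved in both directions. Its start region, chr3:89714701-89715900, had a log2 fold change of -1.15 in the authors' deposited table, and 2 regions inside the gene were higher, at 0.88 and 0.68. Of the 3 annotated starts of Adar, the last lies in 1 of these higher regions, chr3:89730601-89732700 (FDR 0.000697), and the others lie in the lower start region. The peak of that higher region stood at 48.1, 45.4 and 45.8 times mean coverage in KO and at 33.3, 39.9 and 41.4 times in WT, without overlap. Adar was counted as lower by its gene-end region alone, since the region at its last start does not lie at a gene end. Covered length over Adar overlapped, at 4805, 5113 and 5174 bp in KO and 5085, 4670 and 5174 bp in WT, a mean difference of 54.3 bp, but the difference was 1038 bp with single-read peaks (exact permutation p = 0.1). Ifih1 (MDA5), Dhx58 (LGP2) and Eif2ak2 (PKR) were not called, at 0.40, -0.37 and -0.41 in the authors' deposited table. Trim25, the ligase that helps activate RIG-I, was lower, at -0.67 and an FDR of 0.0254 in the authors' deposited table, with overlapping summit levels of 39.5, 31.9 and 41.7 in KO and 36.8, 50.6 and 51.2 in WT. Covered length around Trim25 was 3980, 3313 and 3404 bp in KO and 4939, 3681 and 6068 bp in WT.

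Of the 9 other effectors, 5 had a gene-end region, 3 of them lower and none higher, beside 64.3% and 6.4% of all genes, so the share lower was near that of all genes. Samd9l, an antiviral and growth-restraining protein, had a log2 fold change of -1.08 and an FDR of 5.41e-06 in the authors' deposited table. Its summit levels were 23.2, 15.7 and 21.9 in KO and 30.8, 34.8 and 41.8 in WT, a log2 difference of -0.83 ± 0.22 (SE) without overlap, and covered length was 306, 306 and 1279 bp in KO against 1593, 1777 and 1302 bp in WT. With single-read peaks the mean difference of -927 bp at Samd9l was -127 bp (exact permutation p = 0.4). The third KO library lay close to the third WT library in that length and far from the other KO libraries.

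Bst2, the tetherin that holds budding virions on the cell surface, was lower at -0.77 in the authors' deposited table, with overlapping summit levels of 35.7, 37.1 and 31.8 in KO and 34.8, 47.1 and 34.7 in WT. A region 8172 bp from the Bst2 start, chr8:71528551-71529300, had the lowest log2 fold change that the authors' deposited table gives to the 64 regions, -1.74, and held a peak in 1 KO and all 3 WT libraries. Covered length around Bst2 was 1832, 2403 and 2352 bp in KO and 3263, 2686 and 2403 bp in WT. Ifi27, a mitochondrial protein, was lower at -0.56 in the authors' deposited table, with peaks over 3036, 2876 and 2689 bp in KO and 3330, 3501 and 3804 bp in WT, a mean difference of -678 bp, or -175 bp with single-read peaks (exact permutation p = 0.7). The called region of Ifi27 and its other region both also lie within 2 kb of an end of Ifi27l2a. Ifi35 and Parp14 were not called, at -0.55 and -0.73 in the authors' deposited table.

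Summit levels set the genes side by side independently of the table's library scaling. They could be read in all 6 libraries for 27 genes, of which 9 stood higher in every KO library than in any WT library (Isg20, Mx2, Gbp2, Gbp3, Gbp5, Gbp7, Irgm2, Ifih1 and Zbp1) and 4 lower (Ifit2, Oas3, Samd9l and Ifi35). Over 9748 genes read in the same way, 17.8% stood higher and 16.8% lower. The median log2 difference over the 27 genes was 0.05, beside 0.01 over all genes. The median log2 level of each library over the 27 genes had a mean of 5.36 in KO and 5.27 in WT (exact permutation p = 0.5). The lowest Benjamini-Hochberg adjusted exact permutation p was 0.208. Of the 9 genes called higher in the authors' deposited table, 6 also had summit levels above every WT library, and of the 9 called lower, 3 had levels below. Among the 6 is Irgm2, whose levels are those of its start region and not of the region called higher. That start region stood at -0.69 in the authors' deposited table and was not called. Iigp1, called higher, and Oasl2, called lower, had no level in all 6 libraries. The table reads the best window of a gene-end region, and the summit level reads the tallest gene-end peak. In bulk chromatin, fewer cells that carry the mark and less mark per cell cannot be told apart.

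**Figure D5:**
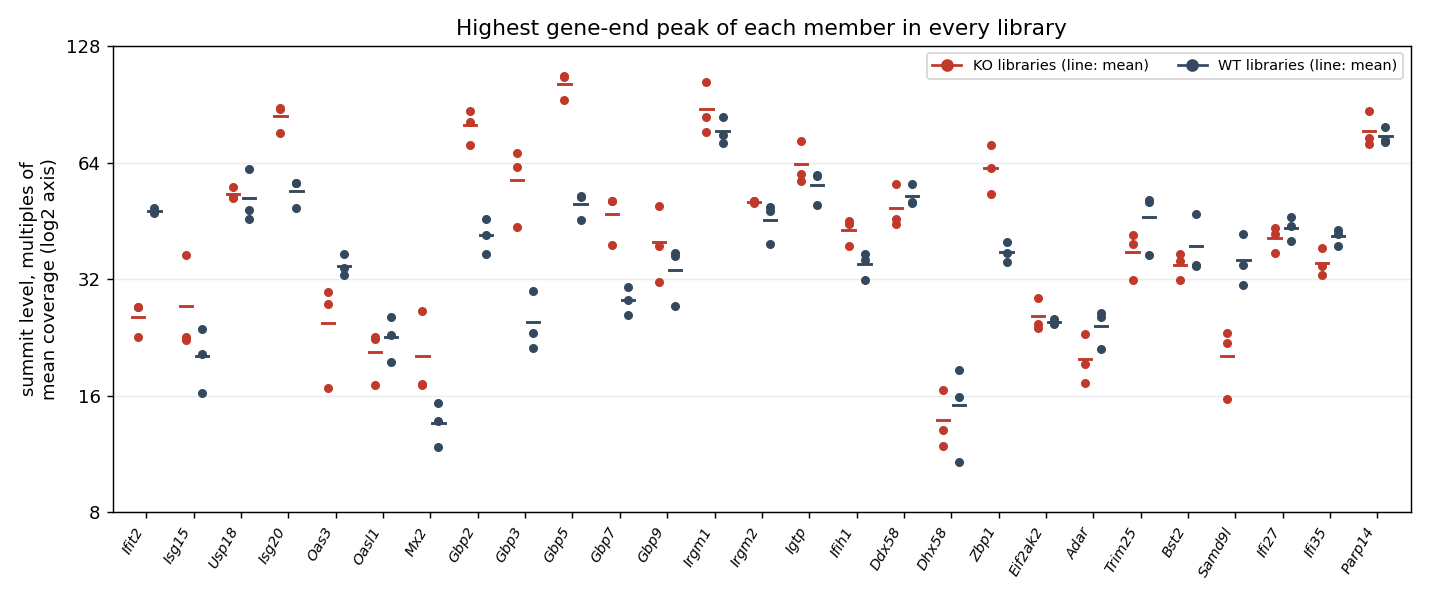
Summit level of the tallest gene-end peak, in multiples of mean coverage on a log2 axis, for the 27 genes read in all 6 libraries, with points for libraries, lines for genotype means, and KO left of WT within each gene. Points separate upward in KO for Gbp2, Gbp3, Gbp5, Gbp7, Zbp1 and Isg20 and downward for Ifit2 and Samd9l.

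The rank order of the genes by mean level changed with these shifts. Gbp5 ranked 1 of the 27 in KO, with a mean level of 102, and 7 in WT, with 50.0. Among 9749 genes Gbp5 lay at percentile 85.4 in KO and 43.0 in WT. Gbp3 lay at percentile 54.5 in KO and 9.61 in WT, and Gbp2 at 74.4 in KO and 31.1 in WT. Ifit2 lay at percentile 12.2 in KO and 40.3 in WT. Irgm1 and Parp14 stayed near the top in both, at 79.1 and 72.5 in KO and 72.3 and 70.5 in WT, and Dhx58 stayed near the bottom, at 1.22 in KO and 2.07 in WT.

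The genes that carry the interferon signal were lower in about the same share as all genes. Of 34 ligand, receptor, kinase, STAT, IRF, feedback and sensing genes outside the set, 30 had a gene-end region, of which, per the authors' deposited table, 18 were lower and 1 was higher, with a median log2 fold change of -0.82, beside the 64.3% and 6.4% of all genes. The 1 that was higher was Irf1, the interferon gamma-induced transcription factor, at 0.95 and an FDR of 0.000485 in the authors' deposited table. Those of lowest FDR among the lower genes were Cgas, the cytosolic DNA sensor, at -1.48, Ptpn6, the phosphatase SHP-1, at -1.23, Ifngr2, a chain of the interferon gamma receptor, at -1.05, and Ptpn2, a phosphatase that dampens cytokine receptor signalling, at -1.01, all in the authors' deposited table. Of 9 transcription factor genes, 6 were lower, and of 4 receptor genes 2 were lower. The authors' deposited table has no gene-end region for Ifng, Ifnb1, Ifna4 or Ifne.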

How the data were processed

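H3K9/14ac was measured in 3 KO and 3 WT ChIP libraries; 6 inputs were not analysed here. Per the submitters' processing notes, the tools were MACS2 2.2.6, deepTools 3.3.2, Bowtie2 2.3.5.1, cutadapt 2.8 and bcl2fastq 2.20.0.422, with the builds GRCm38 and mm10. The sources used here give neither the program and scaling behind the differential table nor whether inputs served as peak controls. In the deposited peak lists, called per library on fragments (used here) and on single reads, each peak has a score, a fold enrichment (a ratio) and -log10 p and q columns, per the file headers. The authors' deposited table gives, for 40909 regions of 150 bp windows, the best window's log2 fold change, an FDR, a p-value and counts of windows that went down or up, with no value per library. Positive values mean higher in KO: 99.5% of 1065 regions with a peak in the KO libraries only were positive, and 99.9% of 2731 with a peak in the WT libraries only were negative.

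Spans of 24128 regions come from the deposited list of significant regions, and 16438 were rebuilt by joining windows over single-read peaks (341 more were placed by their best window), a method that returned 98.0% of listed spans exactly. Summit heights in fragments were solved from each peak's fold and p, taking the treatment track as scaled by 0.890 in WT library 1 and 0.922 in WT library 2, and 99.96% or more of peaks gave a whole number within 0.01 of the -log10 p. The solver was tested on simulated data. Dividing by mean coverage gives the summit level; the table lies 0.30 below that scaling on the log2 scale, from 1309 regions. The annotation gives spans without exons, so regions are placed by gene end. Python 3.11.15, numpy 2.4.6, pandas 2.3.3 and scipy 1.17.1 were used.

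The genes and lists were chosen with earlier results of these data known. Values per library are given for genes called at an FDR under 0.05 (up to 10 of lowest FDR each way) and for both clusters. They are also given for any gene with a peak in all libraries of 1 genotype and none of the other. Other genes named for their levels were chosen after their values were seen. Some marker values are not reported here. Tests are exact two-sided permutations over libraries. Replicate numbers were not used as pairs in these tests, and whether they mark pairs is not known, as given in the closing section. Alternatives were other gene-end distances, thresholds, peak lists and scalings, and each library left out.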

Additional observations from a re-analysis of the deposited data

How the results depend on the processing

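The even split of calls changed with the rule, to 13 of 29 genes lower and 8 higher with any region within 5 kb of the span. At an FDR under 0.01, 5 of 29 genes were lower and 8 higher. With an FDR under 0.05 and a log2 fold change of at least 1 in size at both the table's and the mean-coverage scaling, 0 were lower and 5 higher, beside 14.7% and 3.36% of all genes. Mean-coverage scaling adds 0.30 to each log2 fold change. The genes called lower stood at -0.56 or below, so none of the 18 called genes could change sign by it. Past a log2 fold change of 1 at mean-coverage scaling and an FDR under 0.05, 2 of the 64 regions were lower and 14 higher. Using regions within 1 kb of an annotated start, an alternative chosen after seeing the data, 7 of 20 genes were lower and 6 higher. With single-read peaks the difference in covered length, KO minus WT, was 4449 bp over all genes (exact permutation p = 0.3; -1102 bp with paired fragments) and 1552 bp at gene ends (exact permutation p = 0.7; -772 bp), so the sign of both depends on the list; the cause was not tested. Leaving out 1 library at a time gave -2904.5 to 614.5 bp over all genes (positive without WT library 1), -2047 to 160 bp at gene ends (positive without KO library 1), 6027 to 8131 bp over the Gbp cluster, -2300.3 to -1694 bp over the Ifit cluster, and 0.04 to 0.17 for the median log2 summit level. Same-numbered KO and WT libraries deviated together weakly across 9749 genes (r = 0.05, 0.04 and 0.03). Each KO library correlated best with its own number, and r for the other pairs ran from -0.05 to 0.01. The labels do not say whether the numbers mark pairs, and correlations this small cannot settle it. With the replicate block the exact sign-flip p was 0.25, the smallest it allows, for both clusters (6941 bp and -2077 bp), 1.0 over all genes, 0.75 at gene ends and 0.75 for the library medians of log2 summit level.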
